A study of Mus musculus with 18 samples.

Results

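Counts of 58 genes of the mitotic spindle, the kinetochore and cytokinesis were followed across 18 mouse livers. The genes were taken as a fixed list of names, with no measured value in the rule, but chosen with earlier results of these data known. All 58 were found among the 34937 genes counted and passed the filter on low counts. Mitosis divides replicated chromosomes between a pair of daughter cells. Kinetochores, built on the centromere, hold chromosomes to spindle microtubules, a checkpoint delays anaphase until all are attached, and kinesins, condensins and the cytokinesis machinery then move, compact and part them. In adult liver most hepatocytes are quiescent, and these transcripts are low until loss of tissue drives hepatocytes back into the cycle. Their genes are largely transcribed late in the cell cycle, by the MuvB complex with the factors B-MYB and FOXM1.

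The livers came from 6 groups of 3 mice, and all of them had received the liver toxin carbon tetrachloride in oil by intraperitoneal injection, 0.5 µL for each g of weight. MycER joins the transcription factor MYC to the part of the estrogen receptor that binds hormone, so that tamoxifen, here 1 mg injected every day, turns it on. The labels put groups 1OFF, 2OFF, 3OFF and 7OFF at 1, 2, 3 and 7 days after injury, all with MycER not activated. Group 12ON was sampled at 12 days with MycER activated, and group 12 at 12 days with MycER not activated. The labels do not say whether MycER had been active earlier in the OFF mice, whether group 12 received tamoxifen, what promoter drives MycER, or the strain, age or sex of the mice. Nothing in the labels says whether mice shared a litter or batch, so the p-values measure the spread between these livers.

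Depth ran from 23.1 to 75.3 M counts a library, and 19763 to 22315 genes had a count. The label of liver matched the hepatocyte genes Alb, Ttr, Apoa1, Tat, Hnf4a and Cps1, none of which was at 0 in any library. Mitochondrial genes took 6.16% to 7.33% of counts in the 1OFF mice, 6.69% to 7.00% in the 2OFF mice, 5.36% to 7.18% in the 3OFF mice, 5.54% to 6.19% in the 7OFF mice, 6.42% to 7.11% in the 12ON mice and 4.80% to 5.25% in group 12. Xist, transcribed from the inactive X chromosome, was at 263 CPM or more in 1 library of every group but 1OFF, where the highest was 0.758 CPM.

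The first comparison asked how livers with MycER activated differed from those without at day 12. Of the 58 genes, 57 were higher in 12ON and 1, Pttg1, was lower, where 24.0% and 22.6% of all 17789 genes tested were called higher and lower. The median log2 fold change of the 58 genes was 2.92 (7.59-fold), against 0.00 over all genes tested, and 48 of them changed at least 4-fold. Together the 58 genes took 0.104% to 0.172% of the counts in 12ON and 0.0160% to 0.0197% in group 12. In normalised CPM, none of the 58 overlapped between the groups, where 30.0% of all genes lay wholly higher and 28.2% wholly lower. In bulk tissue, a change in the number of dividing cells and a change in RNA per cell cannot be told apart. A gene was called at an adjusted p under 0.05 (edgeR, quasi-likelihood, Benjamini-Hochberg across the whole table). Here and below, levels are normalised CPM, counts scaled to the depth of the library times its TMM factor. That factor was 0.79 to 0.92 in group 12 and 1.16 to 1.24 in 12ON. Log2 fold changes, for 3 mice a group, are given with a standard error derived from the quasi-likelihood F statistic. Its spread comes from the fit to all 18 libraries, not from the 2 groups compared alone.

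Markers of several cell types also differed between 12ON and group 12, and their part in the result was not tested. The 6 hepatocyte markers summed to 28648 to 35546 CPM in 12ON and 98797 to 109001 CPM in group 12, with 1 higher and 5 lower in 12ON. All 6 cholangiocyte markers were higher in 12ON, at a sum of 184 to 198 CPM against 32.1 to 93.4 CPM in group 12, and of these Cftr was at 0 in at least 1 library. The 6 stellate cell and fibroblast markers summed to 269 to 278 CPM in 12ON and 149 to 181 CPM in group 12, with 3 higher. Sinusoidal endothelial markers, all 6 lower, summed to 143 to 157 CPM in 12ON and 293 to 332 CPM in group 12. Markers of Kupffer cells and macrophages summed to 300 to 478 CPM in 12ON and 687 to 1001 CPM in group 12, with 4 of 6 lower. Lymphocyte markers, 3 of 6 lower, lay at 3.03 to 3.43 CPM in 12ON and 7.09 to 8.10 CPM in group 12. No erythroid or neutrophil marker passed the test. Their sums were 42.2 to 125 and 187 to 263 CPM in 12ON, against 48.7 to 55.3 and 185 to 257 CPM in group 12, with Epb42 at 0 in some libraries.

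**Figure D1:**
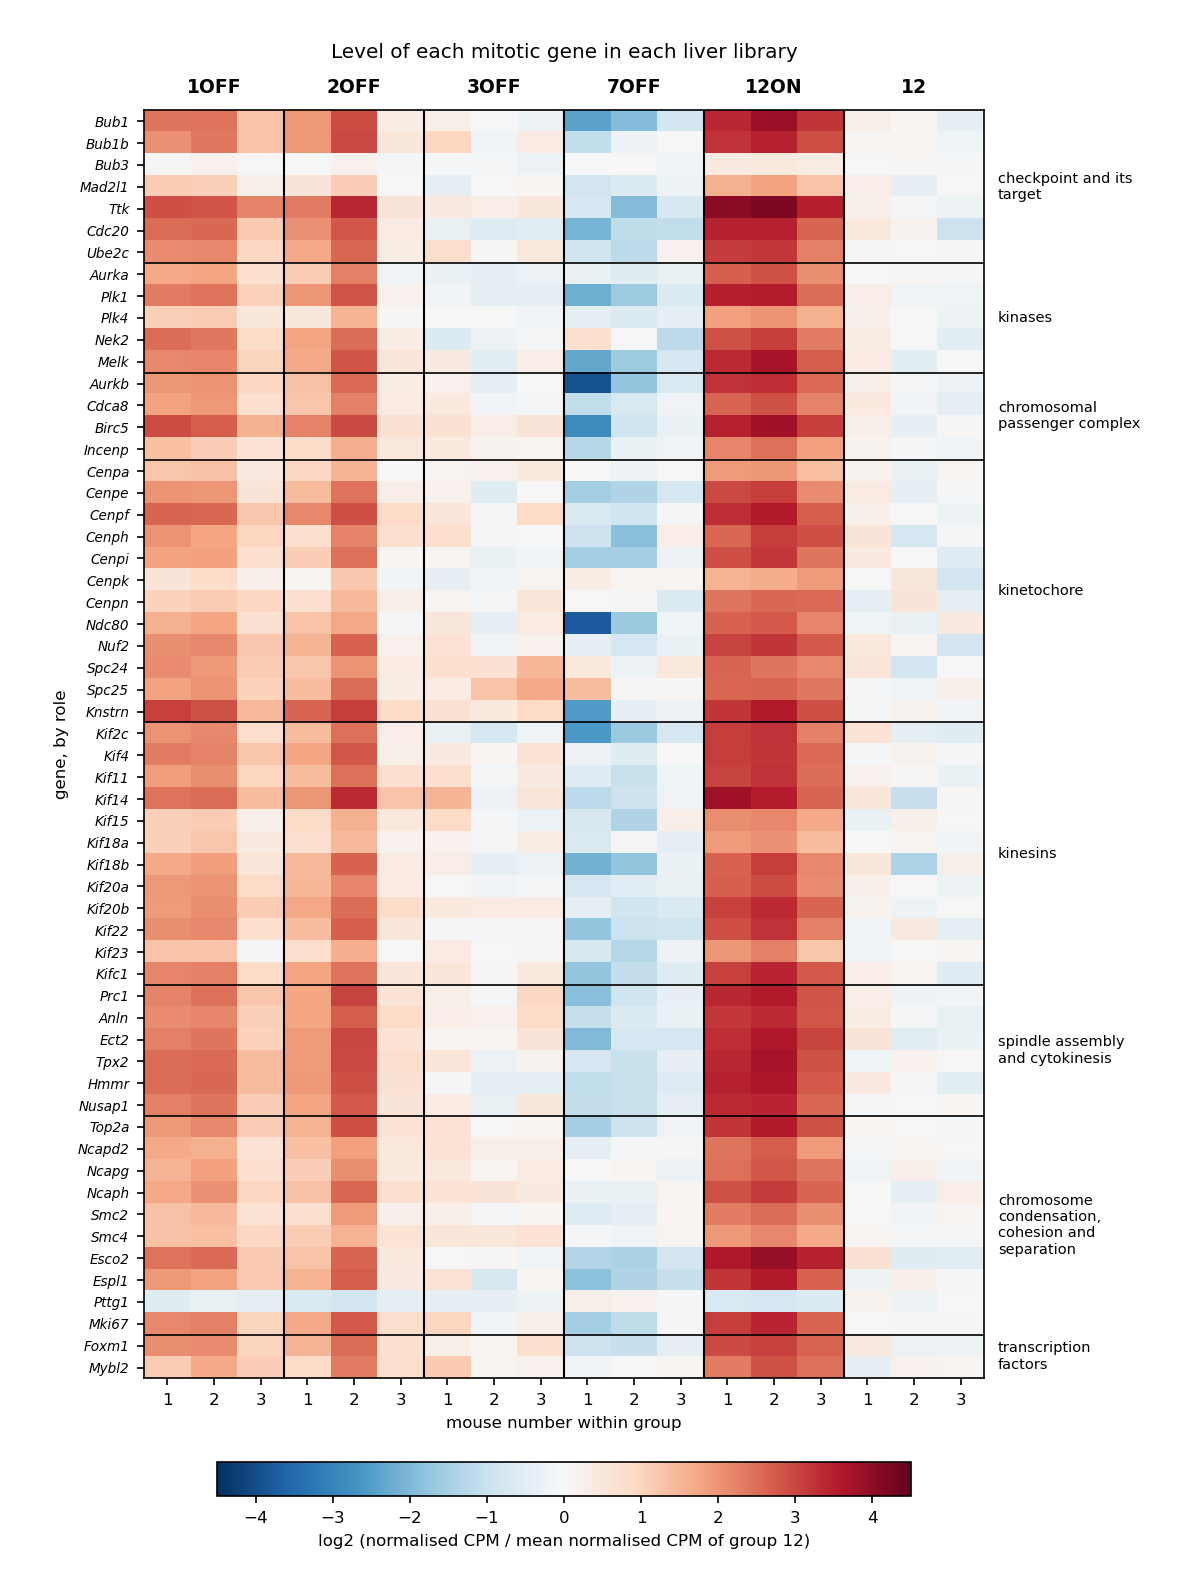
Log2 ratio of normalised CPM in each of the 18 libraries to the mean of group 12, for the 58 genes in rows by role and the 3 mice of each group in columns. The 12ON columns are red for 57 genes and blue for Pttg1, and in 2OFF mouse 2 is redder than mouse 3 for 57 of 58 genes.

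The promoters are shown for the 3 genes with the largest log2 fold change among those with a promoter in the table, Ttk, Bub1 and Birc5, and for the pair at the other end, Bub3 and Pttg1. Windows are from RefSeq on GRCm38.p6, at chr9:83834439-83834718 (plus strand) for Ttk, chr2:127831830-127832109 (minus strand) for Bub1, chr11:117848987-117849266 (plus strand) for Birc5, chr7:131560120-131560399 (plus strand) for Bub3 and chr11:43425952-43426231 (minus strand) for Pttg1. Each runs from 250 bases before the RefSeq start of transcription to 30 after it. Capitals mark CCAAT, bound by NF-Y, the cell cycle homology region TTTGAA or TTTAAA, known as an element of late cell cycle promoters, and the E-box CACGTG, bound by MYC with MAX, all searched on both strands.
Ttk: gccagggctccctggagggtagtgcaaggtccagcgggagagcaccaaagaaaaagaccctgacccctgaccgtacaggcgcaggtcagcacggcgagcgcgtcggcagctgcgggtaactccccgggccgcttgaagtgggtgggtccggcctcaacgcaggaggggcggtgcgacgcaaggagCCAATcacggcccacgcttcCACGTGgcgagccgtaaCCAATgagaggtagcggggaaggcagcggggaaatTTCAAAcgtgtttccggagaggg
Bub1: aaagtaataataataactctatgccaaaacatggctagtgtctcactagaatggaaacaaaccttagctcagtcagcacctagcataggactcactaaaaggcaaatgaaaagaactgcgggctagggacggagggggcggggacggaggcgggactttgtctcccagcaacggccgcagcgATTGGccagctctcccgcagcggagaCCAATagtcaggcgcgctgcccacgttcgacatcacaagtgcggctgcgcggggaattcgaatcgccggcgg
Birc5: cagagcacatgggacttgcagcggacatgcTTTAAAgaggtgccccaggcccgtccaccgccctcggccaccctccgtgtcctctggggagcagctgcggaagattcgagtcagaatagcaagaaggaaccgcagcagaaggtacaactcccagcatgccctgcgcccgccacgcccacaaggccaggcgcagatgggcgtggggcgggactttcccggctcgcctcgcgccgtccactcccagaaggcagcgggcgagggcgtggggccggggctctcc
Bub3: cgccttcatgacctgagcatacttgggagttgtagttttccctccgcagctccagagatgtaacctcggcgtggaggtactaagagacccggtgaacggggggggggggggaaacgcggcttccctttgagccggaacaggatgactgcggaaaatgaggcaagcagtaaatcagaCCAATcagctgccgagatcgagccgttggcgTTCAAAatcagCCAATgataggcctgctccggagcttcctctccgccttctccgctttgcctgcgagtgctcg
Pttg1: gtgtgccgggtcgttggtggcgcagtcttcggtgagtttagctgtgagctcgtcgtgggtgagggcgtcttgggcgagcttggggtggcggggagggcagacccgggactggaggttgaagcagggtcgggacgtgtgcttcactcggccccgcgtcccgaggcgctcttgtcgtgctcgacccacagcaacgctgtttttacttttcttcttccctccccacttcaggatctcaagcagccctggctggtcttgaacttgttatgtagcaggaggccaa
Ttk held 2 CCAAT boxes, 65 and 28 bases before the start, an E-box between them and 1 cell cycle homology region after the start. Bub1 held 2 CCAAT boxes, 68 and 42 bases before the start, and Birc5 only a TTTAAA 220 bases before it. The Bub3 window held 2 CCAAT boxes and a cell cycle homology region 43 bases before the start, although Bub3 changed least among the genes that rose. None of the 3 motifs was found in these letters of Pttg1. That window lies wholly inside the Ensembl gene, which starts at 43426251 on the minus strand. The bases before that Ensembl start were not searched. Of the 58 genes, 50 had a promoter in the table, with 55 windows of 300 bases. Among those 55 windows 70.9% held CCAAT, against 37.4% of all 32851 windows, and 70.9% held a cell cycle homology region, against 27.6%. Both stood in 58.2% of the members' windows and 10.7% of all. The E-box was in 7.27% and 7.15%. These matches describe letters in a window and were not tested. The median G and C content was 59.0% in the members' windows and 52.7% in all windows. Aurkb, Incenp, Esco2, Spc24, Kif20a, Foxm1, Smc4 and Tpx2 were not matched.

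Foxm1 and Mybl2, the genes of the transcription factors FOXM1 and B-MYB, were both higher in 12ON. Foxm1 had 15.1, 16.5 and 11.8 CPM in 12ON, against 2.54, 1.60 and 1.66 CPM in group 12 (log2 fold change 2.93 ± 0.41, adjusted p = 4.11e-05). Mybl2 had 5.60, 8.22 and 6.36 CPM in 12ON, against 0.882, 1.28 and 1.23 CPM in group 12 (2.55 ± 0.40, adjusted p = 0.000103). Every 12ON library stood above every library of group 12 for both factors.

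All 7 genes of the spindle checkpoint and its target, which delay anaphase until chromosomes are attached, rose in 12ON, with a median log2 fold change of 3.23. Ttk (ENSMUSG00000038379, chromosome 9, 83834689 to 83872389 in GRCm38, plus strand) encodes MPS1, the kinase that starts checkpoint signalling. It had 11.7, 12.9 and 8.02 CPM in 12ON and 0.830, 0.674 and 0.603 CPM in group 12. Its log2 fold change of 3.98 ± 0.52 (adjusted p = 2.57e-05) was the largest of the 58. Bub3, an adaptor that brings the checkpoint kinases to kinetochores, had 40.8, 42.9 and 38.7 CPM in 12ON and 30.9, 32.0 and 29.0 CPM in group 12 (0.41 ± 0.09, adjusted p = 0.00117). The Bub3 groups do not overlap, but its gap is small beside that of Ttk, and Bub3 was already the most abundant per length in group 12, at 14.9 CPM per kb of exon. The checkpoint kinases and inhibitors Bub1 (3.55 ± 0.53), Bub1b (3.23 ± 0.50) and Mad2l1 (1.59 ± 0.29) rose, as did Cdc20, the activator of the anaphase-promoting complex that the checkpoint holds back (3.27 ± 0.54), and Ube2c, an E2 enzyme of that complex (2.92 ± 0.50). Of Ube2c, 22.8% of the exon bases lie within exons of Tnnc2 on the opposite strand, and strand was not used in counting.

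The 5 mitotic kinases rose by a median log2 fold change of 2.82. Melk, a kinase of proliferating and progenitor cells, had 6.95, 8.97 and 4.49 CPM in 12ON and 0.882, 0.481 and 0.689 CPM in group 12 (3.34 ± 0.53, adjusted p = 0.000123). Plk4, which drives centriole duplication, had 10.8, 12.2 and 9.15 CPM in 12ON and 3.53, 2.98 and 2.56 CPM in group 12 (1.84 ± 0.30, adjusted p = 0.000145). In both kinases the third 12ON mouse was the lowest of its group, yet above every library of group 12. Plk1, which acts from mitotic entry to cytokinesis, rose by 3.27 ± 0.56, the centrosomal kinases Aurka and Nek2 by 2.58 ± 0.44 and 2.82 ± 0.55.

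In the chromosomal passenger complex, which corrects wrong attachments and moves to the midzone for cytokinesis, all 4 subunits rose. Birc5, survivin, had 19.6, 24.3 and 15.4 CPM in 12ON and 2.08, 1.38 and 1.85 CPM in group 12 (3.49 ± 0.54, adjusted p = 9.23e-05). Incenp, the scaffold, had 23.4, 27.9 and 18.2 CPM in 12ON and 5.60, 4.88 and 4.65 CPM in group 12 (2.20 ± 0.31, adjusted p = 4.04e-05). All 12ON mice were above all mice of group 12 for both subunits. Aurkb, the kinase subunit, rose by 3.10 ± 0.55 and Cdca8, borealin, by 2.63 ± 0.44.

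The 12 kinetochore genes all rose, with a median of 2.67 and log2 fold changes of 1.75 to 3.27. Cenpf, a large microtubule-binding kinetochore protein, had 20.4, 24.6 and 13.8 CPM in 12ON and 2.39, 2.05 and 1.74 CPM in group 12 (3.27 ± 0.48, adjusted p = 6.51e-05). Cenpk, of the constitutive centromere network, had 2.25, 2.46 and 2.89 CPM in 12ON and 0.778, 1.09 and 0.431 CPM in group 12 (1.75 ± 0.35, adjusted p = 0.000861). Cenpk was 1 of 2 genes highest in the third 12ON mouse, with no overlap between the groups. The 4 subunits of the NDC80 complex, which grips the microtubule, rose by 2.53 ± 0.53 (Ndc80), 3.06 ± 0.49 (Nuf2), 2.43 ± 0.41 (Spc24) and 2.52 ± 0.51 (Spc25). Cenpa, the centromeric histone H3 variant, rose by 1.77 ± 0.31, the kinesin Cenpe by 2.81 ± 0.49 and the spindle adaptor Knstrn by 3.26 ± 0.55.

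Of the kinesins, motors that slide or depolymerise microtubules and carry chromosomes, all 12 rose. Kif14, a cytokinesis motor, had 5.47, 4.57 and 2.38 CPM in 12ON and 0.571, 0.193 and 0.409 CPM in group 12 (3.45 ± 0.61, adjusted p = 0.000301). Kif18a, which limits chromosome oscillation, had 4.99, 5.52 and 3.57 CPM in 12ON and 1.35, 1.41 and 1.23 CPM in group 12 (1.82 ± 0.30, adjusted p = 0.000164). These were also the least abundant of the 58 per length in 12ON, at 0.400 and 0.477 CPM per kb of exon. Kif11 (Eg5, which separates the spindle poles) rose by 2.98 ± 0.41, Kif20b by 3.06 ± 0.35 and Kif23, of centralspindlin, by 1.89 ± 0.41. Kif20a rose by 2.64 ± 0.38, with 33.2% of its exon bases inside exons of Cdc23 on the opposite strand.

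The 6 genes of spindle assembly and cytokinesis rose within a narrow range, 3.16 to 3.39. Ect2, which activates RhoA for the cleavage furrow, had 21.9, 26.8 and 18.2 CPM in 12ON and 3.27, 1.54 and 1.77 CPM in group 12 (3.39 ± 0.52, adjusted p = 9.50e-05). Nusap1, a spindle-stabilising protein, had 18.9, 19.9 and 11.2 CPM in 12ON and 1.76, 1.83 and 1.96 CPM in group 12 (3.16 ± 0.47, adjusted p = 7.38e-05). Neither gene overlapped between the groups. Anillin (Anln), Hmmr, Tpx2 and Prc1, which bundles midzone microtubules, lay between them.

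Among the 10 genes of chromosome condensation, cohesion and separation, 9 rose. Esco2, the acetyltransferase that sets cohesion, had 12.6, 15.5 and 11.5 CPM in 12ON and 1.66, 0.706 and 0.732 CPM in group 12 (3.75 ± 0.50, adjusted p = 3.09e-05). Top2a, the decatenating topoisomerase, had 76.3, 97.9 and 59.2 CPM in 12ON and 8.77, 8.05 and 7.80 CPM in group 12 (3.25 ± 0.48, adjusted p = 7.13e-05). Mki67, which coats mitotic chromosomes and marks cycling cells, had 79.9, 101 and 56.9 CPM in 12ON and 9.29, 8.99 and 9.71 CPM in group 12 (3.08 ± 0.50, adjusted p = 0.000135). In all of these the second 12ON mouse was highest and the third lowest. Condensin subunits rose by less, from 1.96 ± 0.19 for Smc4 to 2.88 ± 0.40 for Ncaph, and separase, Espl1, by 3.17 ± 0.49.

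Pttg1 (ENSMUSG00000020415, chromosome 11, 43420250 to 43426251 in GRCm38, minus strand), which encodes securin, the protein that holds separase inactive until anaphase, moved the other way. It had 10.8, 10.3 and 11.6 CPM in 12ON and 19.77, 15.15 and 18.01 CPM in group 12 (log2 fold change -0.69 ± 0.12, adjusted p = 0.000336). In normalised CPM all 3 libraries of 12ON were below all 3 of group 12. Without the TMM factor the groups overlapped, through the second mouse of group 12. Scaled by total counts in place of TMM, which moved the median of all genes by 0.49 in this comparison, Pttg1 stood at -0.20 and was not called (adjusted p = 0.176). With the mitochondrial share as a covariate, 51 of the 58 genes remained higher, where 13.1% of all genes were called higher in that fit, and the median was 2.31. Cenph, Ndc80, Kif2c, Kif15, Kif18b and Kif23 were no longer called.

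**Figure D2:**
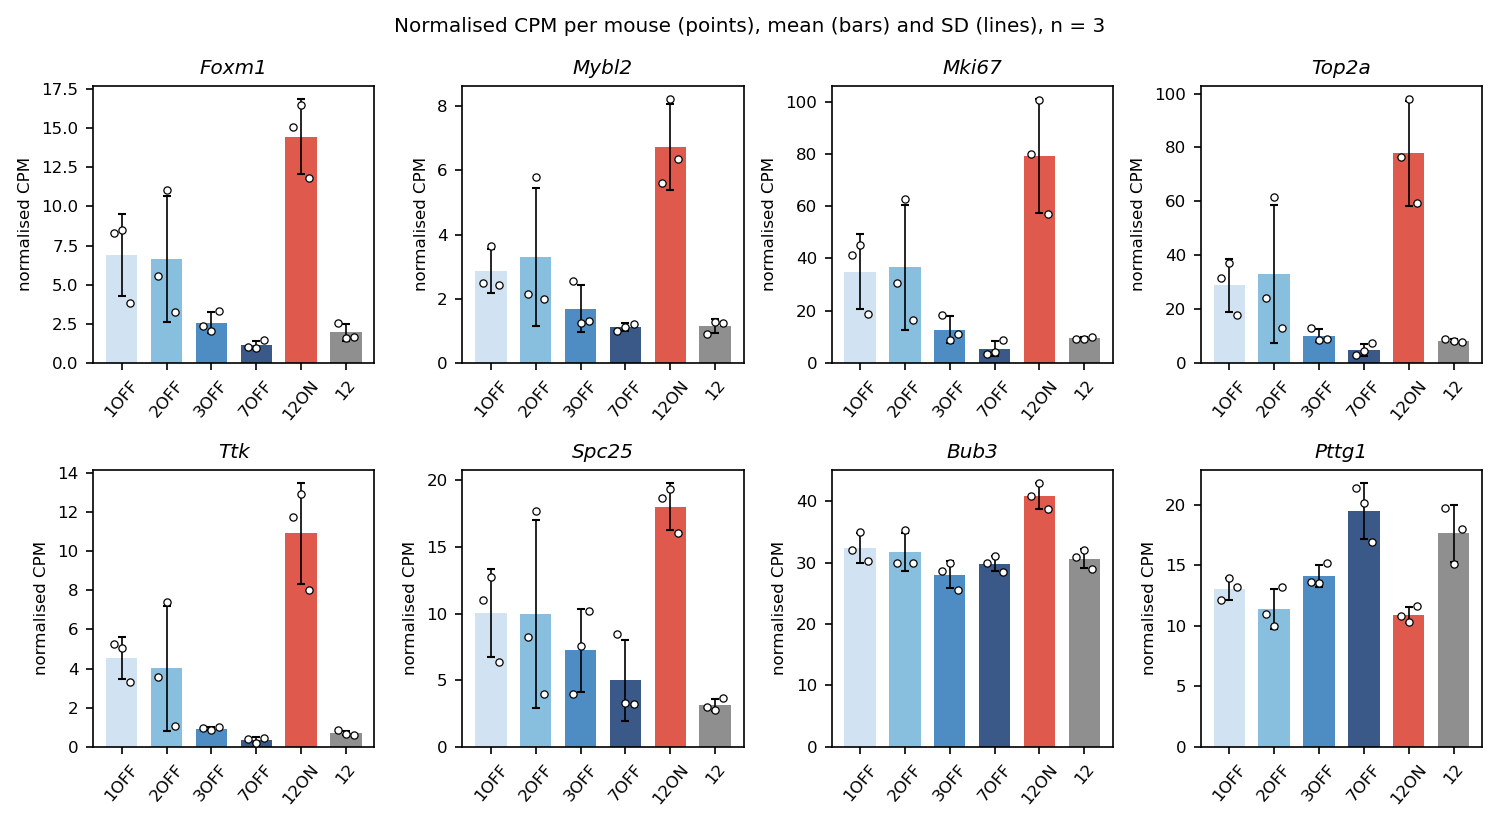
Normalised CPM of 8 genes in the 3 mice of each group, as points, with the mean as a bar and the SD as a line. The first 6 panels have their highest bar in 12ON, and so does Bub3, with a smaller gap, while Pttg1 is lowest in 12ON and highest in 7OFF.

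The second comparison set each OFF group against 12ON. All 4 OFF comparisons share the 12ON libraries. Each OFF group differs from 12ON both in MycER activation and in days after injury, and these cannot be told apart. In 7OFF 57 genes were lower than in 12ON and 1, Pttg1, was higher, where 22.7% and 21.4% of all genes were called lower and higher. The median log2 fold change was -3.62. In 3OFF the counts were again 57 lower and 1 higher, with a median of -2.65, where 17.0% and 15.3% of all genes were called. In 1OFF and 2OFF no gene passed, although the medians were -1.12 and -1.16 and 57 of 58 genes lay below 12ON in each. At an unadjusted p under 0.05, 51 and 52 genes were lower, where 14.4% and 17.1% of all genes passed that p in either direction. In 1OFF vs 12ON 0.00562% of all genes were called higher and 0.0% lower, and in 2OFF vs 12ON 0.0% in each direction. DESeq2 called 15 and 20 of the 58 lower in these groups, where it called 2.07% and 3.57% of all genes lower. The likelihood ratio test of edgeR called 4 and 13 lower, where it called 1.1% and 2.22% of all genes.

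Cell type markers differed in these comparisons too, and their part in the results was not tested. The hepatocyte markers summed to 50813 to 78160 CPM in 3OFF and 62329 to 83162 CPM in 7OFF, against 28648 to 35546 CPM in 12ON, with 5 of 6 higher in each OFF group. All 6 cholangiocyte markers were lower in both, at sums of 69.4 to 82.6 CPM in 3OFF and 49.6 to 78.1 CPM in 7OFF, against 184 to 198 CPM in 12ON. The sinusoidal endothelial markers summed to 229 to 272 CPM in 3OFF and 221 to 273 CPM in 7OFF, against 143 to 157 CPM in 12ON, with 6 and 5 of 6 higher. Of the lymphocyte markers 2 and 3 of 6 were higher, and of the stellate cell and fibroblast markers 1 of 6 was lower in each. Of the Kupffer cell and macrophage markers 3 of 6 were higher in 3OFF and 1 was lower in 7OFF. Of the erythroid markers 1 was higher and 4 were lower in 7OFF and none passed in 3OFF, and no neutrophil marker passed in either.

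The mice of 1OFF and 2OFF differed from each other. In 2OFF the second mouse was highest for 57 of 58 genes and the third lowest for 57, where 37.4% and 30.6% of all genes had those mice as highest and lowest. The median ratio of the highest to the lowest 2OFF mouse was 4.13 over the 58 genes and 1.32 over all genes. In 1OFF the third mouse was lowest for 57 genes, where 36.3% of all genes had it as lowest, with a median ratio of 2.16 over the 58 genes and 1.23 over all genes. The ratio of the 58 genes was 1.46 in 3OFF, 1.79 in 7OFF, 1.58 in 12ON and 1.44 in group 12, against 1.27, 1.34, 1.22 and 1.29 over all genes. The second 2OFF mouse stood 5.69-fold above the mean of group 12 at the median gene, at the level of the third 12ON mouse (5.67-fold), and the third 2OFF mouse 1.34-fold. Without the second 2OFF mouse, 51 of the 58 genes were lower in 2OFF than in 12ON and 15 lower in 1OFF, where 5.43% and 1.57% of all genes were called lower, and the median in 2OFF was -1.77. In 1OFF 54 genes lay wholly below 12ON, where 15.0% of all genes did, and in 2OFF 27 did, where 12.2% did.

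**Figure D3:**
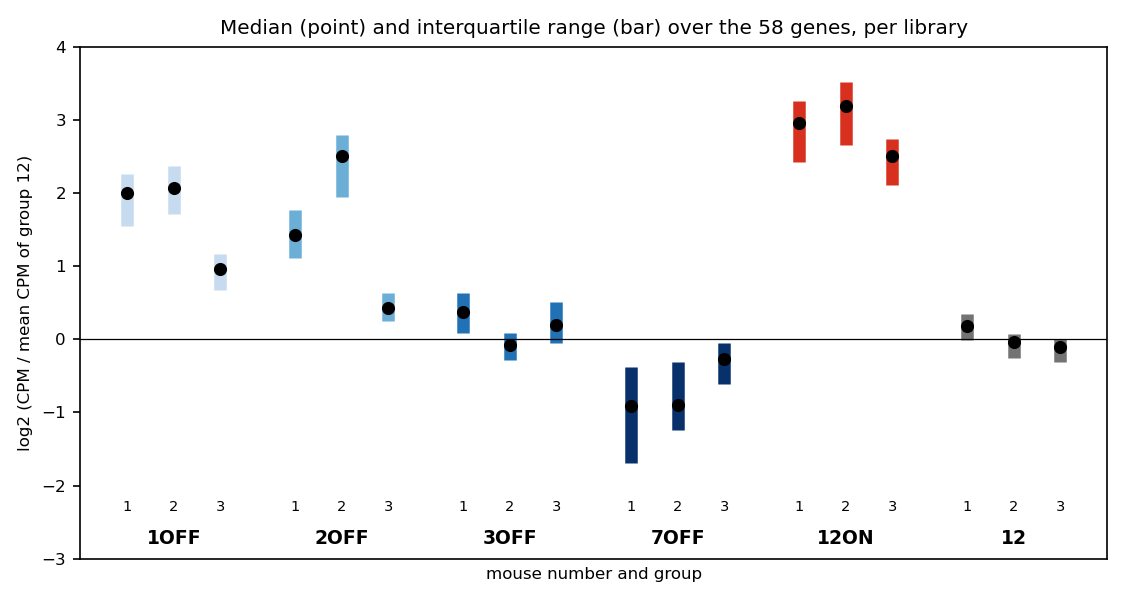
Median (point) and interquartile range (bar) over the 58 genes of the log2 ratio to the mean of group 12, for each library. The points of 2OFF run from 0.42 to 2.51, and those of 12ON from 2.50 to 3.19.

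Foxm1 had 8.31, 8.49 and 3.85 CPM in 1OFF, 5.55, 11.1 and 3.26 CPM in 2OFF, 2.33, 2.05 and 3.31 CPM in 3OFF and 1.01, 0.947 and 1.43 CPM in 7OFF, against 15.1, 16.5 and 11.8 CPM in 12ON. Mybl2 had 2.48, 3.66 and 2.43 CPM in 1OFF, 2.13, 5.78 and 1.98 CPM in 2OFF, 2.53, 1.24 and 1.30 CPM in 3OFF and 0.978, 1.13 and 1.22 CPM in 7OFF, against 5.60, 8.22 and 6.36 CPM in 12ON. For both factors 3OFF and 7OFF lay wholly below 12ON. The log2 fold change of Foxm1 was -2.50 ± 0.39 in 3OFF and -3.67 ± 0.42 in 7OFF, and that of Mybl2 -1.98 ± 0.37 and -2.59 ± 0.39.

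Ttk had 5.27, 5.03 and 3.29 CPM in 1OFF, 3.57, 7.40 and 1.06 CPM in 2OFF, 0.933, 0.856 and 1.00 CPM in 3OFF and 0.419, 0.180 and 0.422 CPM in 7OFF, against 11.7, 12.9 and 8.02 CPM in 12ON. Bub3 had 32.1, 35.0 and 30.2 CPM in 1OFF, 30.0, 35.3 and 29.9 CPM in 2OFF, 28.6, 29.9 and 25.6 CPM in 3OFF and 30.0, 31.0 and 28.5 CPM in 7OFF, against 40.8, 42.9 and 38.7 CPM in 12ON. Every OFF mouse was below every 12ON mouse for both genes. In 7OFF the log2 fold change was -5.03 ± 0.58 for Bub1, -5.02 ± 0.56 for Ttk, -4.58 ± 0.58 for Cdc20 and -0.45 ± 0.09 for Bub3. Without the third 7OFF mouse, which was highest of its group for 47 of the 58 genes, Bub1 stood at -5.63.

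Melk had 3.07, 3.14 and 1.38 CPM in 1OFF, 2.26, 4.87 and 0.989 CPM in 2OFF, 0.913, 0.495 and 0.840 CPM in 3OFF and 0.140, 0.225 and 0.399 CPM in 7OFF, against 6.95, 8.97 and 4.49 CPM in 12ON. Plk4 had 6.42, 6.73 and 4.30 CPM in 1OFF, 4.29, 9.01 and 3.13 CPM in 2OFF, 3.04, 3.03 and 2.79 CPM in 3OFF and 2.31, 1.98 and 2.28 CPM in 7OFF, against 10.8, 12.2 and 9.15 CPM in 12ON. Only the second 2OFF mouse came within the range of 12ON for Melk, and none did for Plk4. Nek2, chosen after its values were seen, had 7.41, 4.40 and 1.95 CPM in 7OFF, against 32.0, 37.9 and 21.8 CPM in 12ON and 5.60, 4.46 and 3.12 CPM in group 12. All 5 kinases fell in 3OFF and in 7OFF, with medians of -3.08 and -2.97.

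Birc5 had 13.5, 11.7 and 5.38 CPM in 1OFF, 8.40, 13.9 and 2.85 CPM in 2OFF, 2.86, 2.17 and 2.63 CPM in 3OFF and 0.245, 0.947 and 1.45 CPM in 7OFF, against 19.6, 24.3 and 15.4 CPM in 12ON. Incenp had 13.0, 11.0 and 7.74 CPM in 1OFF, 8.99, 15.8 and 7.09 CPM in 2OFF, 6.79, 5.63 and 5.48 CPM in 3OFF and 2.06, 4.10 and 4.53 CPM in 7OFF, against 23.4, 27.9 and 18.2 CPM in 12ON. No OFF mouse reached the 12ON range for either subunit. The log2 fold changes in 7OFF were -4.43 ± 0.56 for Birc5, -4.60 ± 0.60 for Aurkb and -2.68 ± 0.31 for Incenp, and Aurkb stood at -5.40 without the third 7OFF mouse.

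Cenpf had 12.5, 12.4 and 4.75 CPM in 1OFF, 9.19, 15.2 and 3.79 CPM in 2OFF, 3.00, 1.94 and 3.80 CPM in 3OFF and 1.29, 1.10 and 1.99 CPM in 7OFF, against 20.4, 24.6 and 13.8 CPM in 12ON. Cenpk had 1.15, 1.35 and 0.897 CPM in 1OFF, 0.815, 1.79 and 0.699 CPM in 2OFF, 0.588, 0.704 and 0.840 CPM in 3OFF and 0.978, 0.834 and 0.845 CPM in 7OFF, against 2.25, 2.46 and 2.89 CPM in 12ON. The second 2OFF mouse lay within the range of 12ON for Cenpf, and no OFF mouse did for Cenpk. Spc25, chosen after its values were seen, had 4.00, 7.53 and 10.2 CPM in 3OFF and 8.45, 3.25 and 3.21 CPM in 7OFF, against 18.7, 19.4 and 16.0 CPM in 12ON. Its log2 fold change was -1.32 ± 0.47 in 3OFF (adjusted p = 0.0433) and -1.88 ± 0.49 in 7OFF. The 3OFF call ended without any 1 mouse of 12ON or of group 12, without 1OFF mouse 1, or without 3OFF mouse 1 or 2, with an adjusted p of 0.0505 to 0.145, and without the first 7OFF mouse the 7OFF value was -2.48. Spc24, its partner, fell by 1.37 ± 0.39 in 3OFF, with an adjusted p of 0.0595 without the second 3OFF mouse. Ndc80 and Cenph had -3.73 ± 0.57 and -3.43 ± 0.53 in 7OFF, and stood at -4.79 and -4.26 without the third 7OFF mouse.

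Kif14 had 2.11, 2.21 and 1.05 CPM in 1OFF, 1.55, 3.99 and 0.940 CPM in 2OFF, 1.14, 0.323 and 0.569 CPM in 3OFF and 0.175, 0.203 and 0.352 CPM in 7OFF, against 5.47, 4.57 and 2.38 CPM in 12ON. Kif18a had 2.81, 3.14 and 1.76 CPM in 1OFF, 2.23, 3.63 and 1.52 CPM in 2OFF, 1.52, 1.24 and 1.68 CPM in 3OFF and 0.838, 1.24 and 1.01 CPM in 7OFF, against 4.99, 5.52 and 3.57 CPM in 12ON. The second 2OFF mouse reached the 12ON range for both motors. All 12 kinesins fell in 3OFF and in 7OFF, with medians of -2.63 and -3.61. Kif14 stood at -3.23 in 3OFF without the first 3OFF mouse, against -2.61 with it, and without the third 7OFF mouse Kif15 and Kif18b stood at -3.03 and -4.60 in 7OFF, against -2.44 and -3.81.

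Ect2 had 10.7, 11.5 and 4.52 CPM in 1OFF, 8.20, 17.4 and 3.38 CPM in 2OFF, 2.31, 2.30 and 3.31 CPM in 3OFF and 0.559, 1.26 and 1.29 CPM in 7OFF, against 21.9, 26.8 and 18.2 CPM in 12ON. Nusap1 had 8.99, 9.89 and 4.00 CPM in 1OFF, 6.27, 12.6 and 2.80 CPM in 2OFF, 2.39, 1.47 and 2.66 CPM in 3OFF and 0.873, 0.924 and 1.38 CPM in 7OFF, against 18.9, 19.9 and 11.2 CPM in 12ON. For Ect2 every OFF mouse was below 12ON, and for Nusap1 the second 2OFF mouse was within its range. All 6 genes fell in 3OFF and in 7OFF, with medians of -3.02 and -4.10.

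Top2a had 31.5, 37.0 and 17.7 CPM in 1OFF, 24.1, 61.7 and 12.8 CPM in 2OFF, 12.9, 8.37 and 8.81 CPM in 3OFF and 2.90, 4.28 and 7.30 CPM in 7OFF, against 76.3, 97.9 and 59.2 CPM in 12ON. Mki67 had 41.3, 45.0 and 18.6 CPM in 1OFF, 30.7, 62.9 and 16.2 CPM in 2OFF, 18.4, 8.52 and 11.1 CPM in 3OFF and 3.21, 4.26 and 8.87 CPM in 7OFF, against 79.9, 101 and 56.9 CPM in 12ON. Esco2 had 5.57, 6.04 and 2.32 CPM in 1OFF, 2.53, 6.36 and 1.40 CPM in 2OFF, 1.01, 1.08 and 0.949 CPM in 3OFF and 0.419, 0.383 and 0.563 CPM in 7OFF, against 12.6, 15.5 and 11.5 CPM in 12ON. The second 2OFF mouse was within the 12ON range for Top2a and Mki67 and below it for Esco2. Log2 fold changes in 7OFF were -4.84 ± 0.54 for Esco2, -3.99 ± 0.50 for Top2a, -3.85 ± 0.51 for Mki67 and -2.01 ± 0.19 for Smc4.

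Pttg1 had 12.1, 13.9 and 13.2 CPM in 1OFF, 11.0, 10.0 and 13.2 CPM in 2OFF, 13.6, 13.5 and 15.2 CPM in 3OFF and 21.4, 20.2 and 16.9 CPM in 7OFF, against 10.8, 10.3 and 11.6 CPM in 12ON. In normalised CPM all mice of 1OFF, 3OFF and 7OFF were above 12ON, and 2OFF overlapped it. Without the TMM factor only 7OFF lay wholly above 12ON. Pttg1 rose by 0.37 ± 0.12 in 3OFF (adjusted p = 0.0318) and by 0.84 ± 0.12 in 7OFF (adjusted p = 7.89e-05). The 3OFF call ended without 12ON mouse 1 or 2, or without 3OFF mouse 2 or 3, with an adjusted p of 0.0515 to 0.127, and it stood at 0.05 under total-count scaling. That scaling moved the median of all genes by -0.31 in 3OFF and -0.41 in 7OFF.

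**Figure D4:**
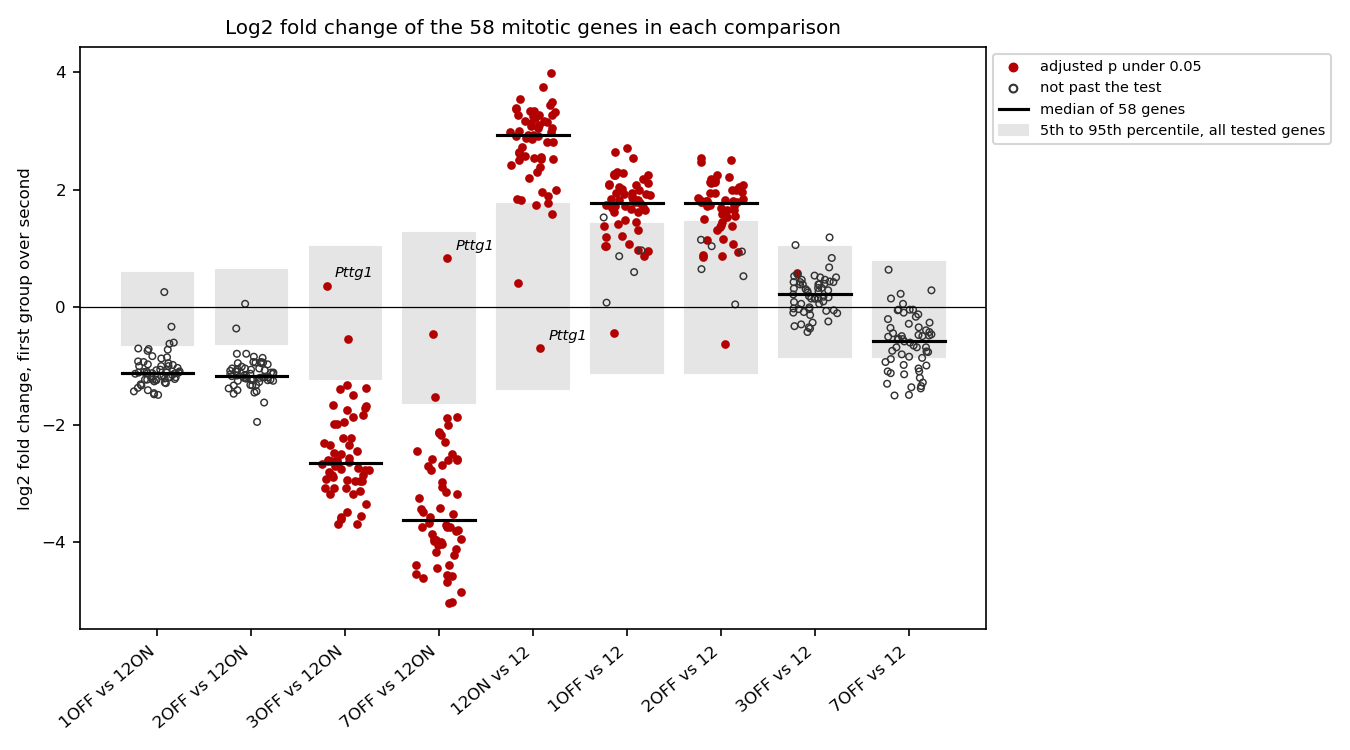
Log2 fold change of each of the 58 genes, first group over second, in 9 comparisons, with genes past the test filled in red, the median as a line and the 5th to 95th percentile of all tested genes in grey. The 58 genes sit above the grey band in 12ON vs 12 for most genes, with Bub3 and Pttg1 among those inside it, and largely within it in 3OFF vs 12.

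The OFF groups were also set against group 12, which the design text does not ask. These 4 comparisons share the libraries of group 12, and each OFF group differs from it in days after injury. In 1OFF 52 genes were higher and 1, Pttg1, lower, with a median log2 fold change of 1.78, where 17.1% and 16.3% of all genes were called. In 2OFF 51 were higher and 1, Pttg1, lower, with a median of 1.77, where 18.1% and 17.0% were called. In 1OFF the genes not called were Bub3 (0.08 ± 0.09), Kif15 (0.87 ± 0.41), Kif18b (1.53 ± 0.59), Kif23 (0.97 ± 0.41) and Cenpk (0.60 ± 0.36). In 2OFF they were Bub3 (0.05 ± 0.09), Mad2l1 (0.65 ± 0.28), Kif15 (1.04 ± 0.41), Kif23 (0.95 ± 0.41), Cenpk (0.53 ± 0.36) and Ndc80 (1.15 ± 0.52). Ttk had the largest value in both, 2.72 ± 0.52 in 1OFF and 2.54 ± 0.51 in 2OFF. In 2OFF the higher count was 26 without the second mouse, where 13.9% of all genes were called higher, and the median was 1.04. With the mitochondrial share as a covariate 1 gene was called higher in each of these groups, where 6.56% and 6.76% of all genes were, and the median was 1.08 in both. The mitochondrial shares of 1OFF and 2OFF lay wholly above those of group 12. The Pttg1 call in 1OFF (-0.43 ± 0.12, adjusted p = 0.0144) ended without the first mouse of either group. The hepatocyte markers summed to 37819 to 43116 CPM in 1OFF and 37658 to 41042 CPM in 2OFF, against 98797 to 109001 CPM in group 12, with 1 of 6 higher and 5 lower in each. The cholangiocyte markers summed to 114 to 137 CPM in 1OFF and 62.1 to 117 CPM in 2OFF, against 32.1 to 93.4 CPM in group 12, with 5 and 3 of 6 higher. Of the stellate cell and fibroblast markers 2 and 3 of 6 were higher, 4 of 6 endothelial, 4 of 6 macrophage and 4 of 6 lymphocyte markers were lower in each group, and no erythroid or neutrophil marker passed. The part of these cell types in the result was not tested.

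In 3OFF 1 gene, Smc4, was higher than in group 12 and none was lower, with a median of 0.23, where 9.47% and 7.95% of all genes were called. At an unadjusted p under 0.05, 3 genes were higher and 1 lower, where 30.8% of all genes passed in either direction. DESeq2 called 2 higher and 0 lower, where it called 10.6% of all genes higher. The sign of the median depends on the fit. It was -0.25 with the mitochondrial share as a covariate, 0.40 under total-count scaling, 0.07 without the first 3OFF mouse and 0.39 without the second. Smc4, the shared condensin ATPase, had 26.0, 25.7 and 28.5 CPM in 3OFF and 19.6, 17.0 and 17.3 CPM in group 12. All 3OFF mice were above group 12. The log2 fold change was 0.58 ± 0.19 (adjusted p = 0.0448), and the call ended without any 1 mouse of 3OFF, 12ON or group 12, or without 1OFF mouse 1 or 2, 2OFF mouse 1 or 7OFF mouse 2. Spc24 and Spc25 had the largest values, 1.06 ± 0.41 and 1.19 ± 0.50, and did not pass (adjusted p = 0.087 and 0.116). Of 6 hepatocyte markers 1 was higher and 2 lower in 3OFF than in group 12, at sums of 50813 to 78160 against 98797 to 109001 CPM. Of the cholangiocyte markers 2 were higher and of the endothelial markers 2 lower, and no marker of the other types passed. The part of these cell types was not tested.

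In 7OFF no gene passed in either direction, with a median of -0.56, where 2.47% and 3.31% of all genes were called higher and lower. At an unadjusted p under 0.05, 9 genes were lower and 0 higher, where 21.9% of all genes passed in either direction, and DESeq2 called 2 lower, where it called 5.28% of all genes lower. The median was -0.92 without the third 7OFF mouse and -0.89 with the mitochondrial share as a covariate. The log2 fold change was below 0 for 53 of the 58 genes, and 26 lay wholly below group 12, where 11.5% of all genes did. Aurkb had the lowest value (-1.50 ± 0.60, adjusted p = 0.152), with 0.140, 0.631 and 1.31 CPM in 7OFF and 2.54, 2.02 and 1.74 CPM in group 12. Every 7OFF mouse was below group 12 for Aurkb, and the first was lowest. Of 6 Kupffer cell and macrophage markers 4 were lower in 7OFF than in group 12, at sums of 329 to 371 against 687 to 1001 CPM. Of the hepatocyte markers 1 was higher, at sums of 62329 to 83162 against 98797 to 109001 CPM. Of the cholangiocyte markers 1 was higher, and no marker of the other types passed. The part of these cell types was not tested.

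Neighbouring OFF groups were compared after the data had been seen. Between 2OFF and 1OFF no gene passed, with 0 at an unadjusted p under 0.05 (2.24% of all genes) and 0 by DESeq2, where 0.0% of all genes were called in each direction. The median was -0.07, and it ran from -0.64 without the second 2OFF mouse to 0.28 without the third, so that its sign depends on the mice included. It was also above 0 without the first 2OFF mouse (0.02) and without 1OFF mouse 1 (0.05) or 2 (0.10). In 3OFF against 2OFF, 27 genes were lower and 0 higher, with a median of -1.51, where 3.95% and 2.84% of all genes were called lower and higher. DESeq2 called 44 lower, where it called 6.88% of all genes lower. The lowest were Cdc20 (-2.50 ± 0.52), Hmmr (-2.38 ± 0.45) and Plk1 (-2.33 ± 0.54). The lower count was 0 without 2OFF mouse 2 or without 3OFF mouse 2 or 3, where 0.0%, 0.277% and 0.0% of all genes were called lower. It was 17 without the first 2OFF mouse, 13 without the first 3OFF mouse and 47 without the third 2OFF mouse, where 3.1%, 3.81% and 5.67% of all genes were. Without 2OFF mouse 2 the median was -0.89. Between 7OFF and 3OFF only Pttg1 was called, higher by 0.47 ± 0.12 (adjusted p = 0.0306), where 3.02% of all genes were called higher and 5.04% lower. That call ended without mouse 1 or 2 of either group. No gene was lower by edgeR's quasi-likelihood test, and the median was -0.85. At an unadjusted p under 0.05, 23 were lower (24.5% of all genes in either direction), and DESeq2 called 9 lower (7.02% of all genes). The log2 fold change was below 0 for 54 of the 58 genes and above 0 for 4. Of the Kupffer cell and macrophage markers 3 of 6 were lower in 7OFF than in 3OFF, as were 3 of 6 erythroid markers. No marker of the other types passed, and the part of these cell types was not tested.

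Another 5 lists of mitotic genes outside the 58 were read in the same fit. In 12ON vs 12, 24.0% of all genes tested were called higher and 22.6% lower. Of 32 other spindle and cytokinesis genes 29 were higher in 12ON than in group 12, with a median log2 fold change of 2.64. They include Psrc1 (4.95 ± 0.57), the AAA ATPase Trip13 that disassembles the checkpoint complex (3.19 ± 0.32) and the augmin subunit Haus8 (2.49 ± 0.27). The spindle pole gene Numa1 (0.16 ± 0.07) and the transport kinesins Kif3a (0.34 ± 0.14) and Kif5b (-0.09 ± 0.09) did not pass. Of 30 other kinetochore and centromere genes 23 were higher and 1 lower, with a median of 1.43. Cenpt (2.27 ± 0.22) and the shugoshin Sgo1 (3.14 ± 0.39) rose, and Zwint fell (-0.24 ± 0.09).

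The lists of complexes that also act outside mitosis had medians of 0.17 to 0.31, against 2.64 and 1.43 in the lists above, and these differences were not tested. Of 16 other condensin and cohesin genes 7 were higher and 0 lower in 12ON, with a median of 0.17, led by Ncapg2 (2.11 ± 0.26), sororin, Cdca5 (3.03 ± 0.47), and Rad21 (0.63 ± 0.11). Of 16 subunits and partners of the anaphase-promoting complex 8 were higher and 2 lower, with a median of 0.31. Cdc23 (1.07 ± 0.16, which shares exon bases with Kif20a), Fzr1 (0.52 ± 0.08) and Cdc16 (0.55 ± 0.09) rose, and Anapc16 (-0.42 ± 0.15) and Cdc26 (-0.23 ± 0.08) fell. Of 11 DREAM and MuvB genes 5 were higher and 2 lower, with a median of 0.31. Beside these 3 lists, 24.0% of all genes were called higher in 12ON than in group 12 and 22.6% lower. Tfdp1 (1.36 ± 0.15), Lin9 (1.11 ± 0.18) and E2f4 (0.56 ± 0.12) rose, and Lin52 (-0.47 ± 0.14) and the p130 gene Rbl2 (-0.51 ± 0.19) fell. In 7OFF against 12ON, where 22.7% of all genes were called lower and 21.4% higher, 29 of the 32 spindle genes were lower and 0 higher, and 24 of the 30 kinetochore genes were lower and 1 higher. Of the 16 anaphase-promoting genes 10 were lower and 0 higher. Of the 16 condensin and cohesin genes 5 were lower and 3 higher, and of the 11 DREAM and MuvB genes 5 were lower and 3 higher.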

How the data were processed

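Poly-A RNA of 18 mouse livers was sequenced as single 50 nt reads. The submitters' processing notes name Trim Galore, TopHat2 and mm10, without versions. Raw counts per gene were deposited by the authors, made with featureCounts 1.5.0-p1 on Ensembl 82 exons, per the file headers, without strand, with a read counted for each gene it overlapped by at least 10 bases and reads of several places left out. Reads in shared exons thus count for both genes, and near-identical copies lose reads. Exon lengths are another column, per the file headers.

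Symbols matched 34599 of 34937 IDs. Replicates differed by a chi-square per gene of 33.9 to 310, far from copies. edgeR 4.0.16 in R 4.3.3 kept 17789 genes (filterByExpr, minimum count 10) and fitted all 18 libraries with TMM scaling (12 residual df, common BCV 0.202). Two-sided quasi-likelihood F tests were adjusted over all genes. The fit was tested on simulated data. DESeq2 1.42.0 was an alternative.

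The 58 genes, role groups, lists and markers were chosen with earlier results of these data known. Values in every library are given for Foxm1, Mybl2, Mki67 and Top2a, for the highest and lowest gene of each of 8 role groups in 12ON vs 12, and for genes whose call differs from most. Of each list up to 3 genes a direction with the smallest p were named, and the values of some list and marker genes are not reported here. No library was left out unless stated.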

Additional observations from a re-analysis of the deposited data

Results flagged for a closer look

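Among the comparisons between OFF time points, the step between 3OFF and 2OFF was marked. The ground was that their effects relative to 12ON differed by a direct test between the groups. There 27 of the 58 genes were lower in 3OFF, where 3.95% of all genes were called lower. Without each library in turn that count ran from 0 to 47, and the step was compared after the data had been seen. The step between 7OFF and 3OFF was marked on the same ground, with 1 gene, Pttg1, higher in 7OFF, where 3.02% of all genes were. Without each library in turn that count ran from 0 to 1, and this step too was compared after the data had been seen. Neither pattern was weighed against an explanation.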

How the results depend on the processing

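Counts below are of the 58 genes. Where the share of all genes in the same fit is not given here or above, it is not reported. No count and no named gene that had been called reversed. The medians of 3OFF vs 12 and 2OFF vs 1OFF changed sign in some fits, as given with those comparisons. In all, 655 recomputed counts stayed within 1.5 times of the reported ones and 89 did not. Without each library in turn, 12ON vs 12 kept counts of 57 higher and 1 lower, and 7OFF vs 12ON of 57 lower and 1 higher. For the others the ranges were 0 to 15 lower in 1OFF and 0 to 51 in 2OFF vs 12ON, 55 to 57 lower and 0 to 1 higher in 3OFF vs 12ON, 39 to 54 higher and 0 to 1 lower in 1OFF vs 12, 26 to 55 higher in 2OFF vs 12, 0 to 1 higher and 0 to 1 lower in 3OFF vs 12, 0 to 1 lower in 7OFF vs 12, 0 to 47 lower and 0 to 1 higher in 3OFF vs 2OFF, and 0 to 6 lower and 0 to 1 higher in 7OFF vs 3OFF. Where a fit leaves 2 mice in a group, the spread is shared with the other groups. DESeq2 gave 15 and 20 lower in 1OFF and 2OFF vs 12ON, 2 higher in 3OFF vs 12, 2 lower in 7OFF vs 12, 44 lower in 3OFF vs 2OFF and 9 lower in 7OFF vs 3OFF. The edgeR likelihood ratio test gave 4, 13, 42 and 7 lower in 1OFF vs 12ON, 2OFF vs 12ON, 3OFF vs 2OFF and 7OFF vs 3OFF. With only the 2 groups compared, the lower counts were 1 in 1OFF vs 12ON, 0 in 3OFF vs 2OFF and 1 in 7OFF vs 3OFF, and the higher count in 7OFF vs 3OFF was 0. A minimum count of 50 gave 1 lower in 2OFF vs 12ON and 1 in 7OFF vs 3OFF, and upper-quartile scaling 1 lower in 7OFF vs 3OFF. Total counts gave 0 lower in 12ON vs 12, 1OFF vs 12 and 2OFF vs 12, and 1 lower in 2OFF vs 12ON. That scaling gave 0 higher in 3OFF vs 12ON and 7OFF vs 3OFF, and 43 lower in 3OFF vs 2OFF. Of all 17789 genes, 2034 were called lower in 3OFF vs 2OFF under it, against 702 with TMM. At an adjusted p under 0.01 there were 33 higher in 1OFF and in 2OFF vs 12, and 0 lower in 1OFF vs 12 and 3OFF vs 2OFF and 0 higher in 3OFF vs 12ON, 3OFF vs 12 and 7OFF vs 3OFF. The test against a 1.5-fold change gave 30 and 27 higher in 1OFF and 2OFF vs 12, with 0 lower in 12ON, 1OFF and 2OFF vs 12 and in 3OFF vs 2OFF, and 0 higher in 3OFF and 7OFF vs 12ON, 3OFF vs 12 and 7OFF vs 3OFF. A term for the mitochondrial share gave 1 higher in 1OFF and 2OFF vs 12, 0 higher in 3OFF vs 12 and 7OFF vs 3OFF, 0 lower in 1OFF vs 12 and 12 lower in 3OFF vs 2OFF. The cause of these changes was not tested. A term for high Xist, DESeq2 size factors and no filter moved no count by over 1.5 times. Nothing in the labels pairs the mice by replicate number. In 0 of 12 comparisons did every same-numbered pair correlate over 0.1 (r from -0.18 to 0.31), which cannot exclude a shared batch or litter. In 2OFF vs 1OFF each 2OFF mouse correlated best with the same-numbered 1OFF mouse (r of 0.08, 0.22 and 0.31). With the replicate block, 10 genes were lower in 2OFF vs 12ON and 1 in 7OFF vs 3OFF, and Spc25 in 3OFF vs 12ON was at -1.28 (adjusted p = 0.0552). Depth was 23.1 to 75.3 M counts, and the rarest genes, such as Kif14 at 0.193 CPM in 1 library of group 12, rest on few reads.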
